A study of Mus musculus with 12 samples.

Results

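The PIWI-interacting RNAs (piRNAs) of serum extracellular vesicles were examined here, as the entries of a small RNA count table whose name contains "piR". They made up 110 of the 1995 entries, and the other 1885 were miRNAs. The libraries came from blood extracellular vesicles (bEVs) of 12 male Rag1-/- mice on a C57BL/6 background, 1 library per mouse. In 6 mice, 10000000 splenic T cells of WT donors had been injected retro-orbitally at 6 weeks of age, and 6 mice had received medium. Sera were taken at 10 weeks and bEVs were enriched by differential ultracentrifugation. Loss of Rag1, which both groups carried, leaves mice without mature T and B lymphocytes, so the injected mice received T cells but no B cells, and the other cells of the host were present in both groups. The comparison asks which vesicle RNAs differ once T cells are present.

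piRNAs are small RNAs, somewhat longer than miRNAs, that guide PIWI-clade Argonaute proteins. They are best known from the germ line, above all the testis, where they are cut from long single-stranded precursors of a limited number of genomic clusters and silence transposons. In blood and other somatic samples, reads assigned to piRNA entries are also a known point of caution, since fragments of other abundant non-coding RNAs can match such entries. PIWI proteins and fragment origin were not measured in these libraries, so piRNA is used below as the name of the annotation entry.

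Each piRNA entry carries a number, a chromosome, a start, an end and a strand. The genome build is not stated beside these positions, so they are given as the table has them and were not set against gene annotation. The 110 entries carried 93 different numbers, because 9 numbers stood on several entries (26 entries in all), each copy with its own position. Annotated lengths ran from 22 to 32 bases with a median of 30. The most frequent length was 30 bases (37 entries), but the counts lay elsewhere: entries of 27 bases took 70.4% of the piRNA counts, those of 28 bases 13.5% and those of 30 bases 9.08%.

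Library totals ran from 75475 to 130106 counts with T cells and from 48997 to 116048 with medium, which did not differ beyond the spread between mice (exact two-sided permutation test, p = 0.312). No count from 1 to 9 stood in T cell replicate 2 or medium replicate 3 for any entry, while the other libraries held between 34 and 471 such counts, so a 0 in those 2 libraries cannot be told apart from a count of 1 to 9. Every entry of the table, piRNA or miRNA, reached 10 or more counts in at least 1 library. The list of 110 is therefore what passed that level, and piRNAs that stayed under it in all 12 libraries were not analysed here.

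piRNAs took a small share of the counts in every mouse. Over all libraries, 46688 of 1089887 counts (4.28%) fell on piRNA entries, although these were 5.51% of the entries. The share was lowest at 2.14%, had a median of 4.14% and was highest at 5.35% with T cells, against 3.88%, 4.69% and 5.29% with medium. The lowest value of all was T cell replicate 2 and the highest T cell replicate 6, and the other 4 libraries with T cells lay between 3.68% and 4.41%. The 95% Wilson interval of the smallest library, medium replicate 6, ran from 4.34% to 4.70%, and such intervals cover counting error only. The mean share was 3.98% ± 1.06 with T cells and 4.68% ± 0.485 in mice given medium (SD, n = 6 each). This difference was within the spread between mice (exact two-sided permutation test over all arrangements of the mice, p = 0.162, 0.487 after Benjamini-Hochberg adjustment over 3 measures). It was larger without T cell replicate 6 (a difference of -0.98 percentage points, exact permutation p = 0.0260) and smaller without T cell replicate 2 (-0.34 percentage points, exact permutation p = 0.327).

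**Figure D1:**
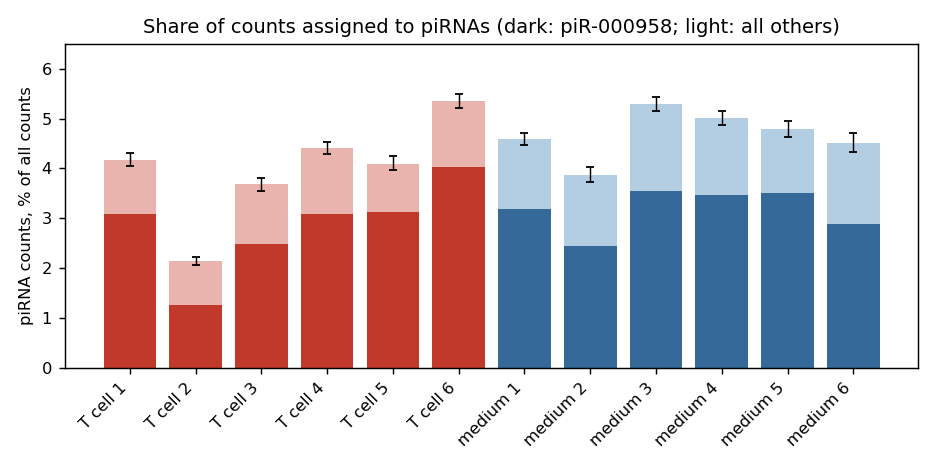
Percent of all counts assigned to piRNA entries in each of 12 libraries, the 6 with T cells at the left (red) and the 6 with medium at the right (blue). The dark part of a bar is piR-000958, the light part the other 109 entries, and the error bars are 95% Wilson intervals of the whole share. T cell replicate 2 is lowest at 2.14% and T cell replicate 6 highest at 5.35%.

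Most of this share came from a single entry. piR-000958 (mouse chromosome 17, 39456228 to 39456254, plus strand, 27 bases) gathered 32520 counts, which was 69.7% of all piRNA counts and the third highest sum of the 1995 entries. Its rank within a library lay between 1 and 14, and it was the most abundant small RNA of the whole table in 4 mice (T cell replicate 6 and medium replicates 3, 5 and 6). Its share of the piRNA counts ran from 59.1% over a median of 71.9% to 76.3% with T cells, against 63.1%, 68.2% and 73.0% with medium. The mean was 70.4% ± 6.45 and 67.7% ± 3.75 (SD, n = 6 each), and the groups overlapped (exact two-sided permutation test, p = 0.396). The next entry, piR-002643 (chromosome 3, 5843705 to 5843732, plus strand, 28 bases), held 4231 counts or 9.06%. The 8 most abundant entries together held 88.3%, and the 88 entries too low to be tested held 5.14%.

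With piR-000958 left out, the difference in piRNA share did not pass the threshold after adjustment, and the groups overlapped. The other 109 entries took between 0.878% and 1.33% of the counts with T cells (median 1.14%), against 1.30% to 1.74% with medium (median 1.48%). Of the 6 libraries with T cells, 2 reached into the range of the medium libraries. The means were 1.13% ± 0.182 and 1.50% ± 0.165 (SD, n = 6 each). An exact two-sided permutation test gave p = 0.00649, which became 0.0779 after Benjamini-Hochberg adjustment over the 12 library measures computed. Leaving out single mice gave p between 0.00433 and 0.0130, and the 10 libraries that hold low counts gave 0.0238 (exact permutation tests, added after the values were seen). A share depends on what else is in the library. The 10 most abundant entries, piR-000958 among them, took 27.4% ± 7.92 of the counts with T cells and 17.8% ± 5.43 in mice given medium (SD, n = 6 each, exact permutation p = 0.0390, adjusted 0.123). With those 10 left out of both sides of the ratio, the piRNA share was 1.55% ± 0.140 with T cells and 1.83% ± 0.215 in mice given medium (SD, n = 6 each, exact permutation p = 0.0216, adjusted 0.123). The part of the abundant miRNAs in these shares was not tested further.

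The piRNA counts were concentrated at few of the positions in the names, most of them in the single entry piR-000958. With entries less than 100 kb apart joined, the 110 entries fell into 62 regions, of which 18 held more than 1 entry (66 entries in all). The region on chromosome 17 from 39454472 to 39456254 held 7 entries on the plus strand within 1783 bases and 72.0% of all piRNA counts. These were piR-000958, piR-000578 (791 counts), piR-038328 (chr17) with 202 counts, and piR-000414 (chr17), piR-000619, piR-002435 and piR-000219 with 49, 31, 30 and 12 counts. The start of piR-000958 lay 1756 bases from the start of the region and that of piR-000578 lay at 1640 bases. The region was bounded by its own entries and ends where piR-000958 ends, so the place of piR-000958 follows from that definition. The counts were not spread evenly over the 7 entries. A region on chromosome 3 (5843428 to 5843811) held 3 plus-strand entries within 384 bases and 10.9% of the counts: piR-000622 (chr3), piR-002643 and piR-000620 (chr3). Of its 5109 counts, piR-002643 held 4231. The numbers piR-000622, piR-000620, piR-038328 and piR-000414 also stand on entries at other positions, so the region their counts came from is not settled. The region with the most entries, on chromosome 17 from 27018239 to 27090117, held 10 entries on both strands but 817 counts (1.75%), and 2 of its entries, piR-038649 and piR-012641, were found in all 12 mice. The first region held 73.5% of the piRNA counts with T cells and 70.7% with medium, the second 9.52% and 12.3%.

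**Figure D2:**
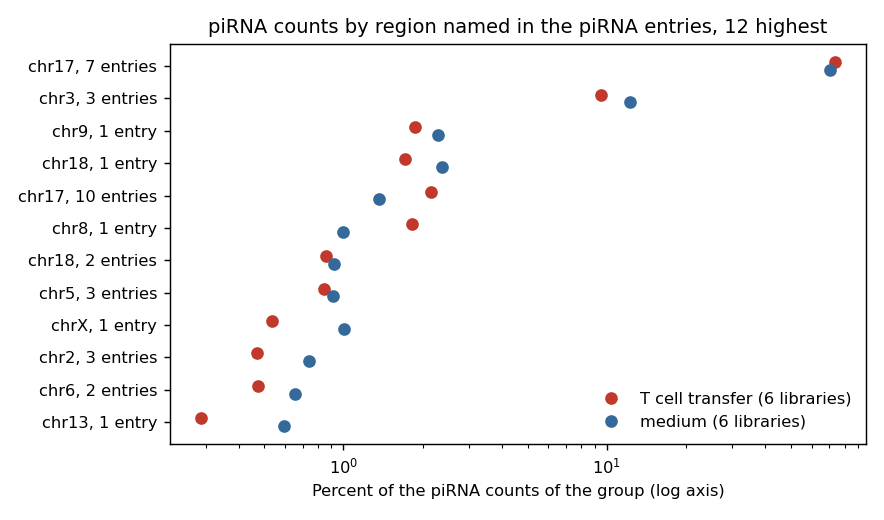
Percent of the piRNA counts of each group (x axis, logarithmic) that fell in the 12 regions with the most counts, each labelled by its chromosome and its number of entries. Each point sums the 6 libraries of a group (T cells red, medium blue), without error. The chromosome 17 region with 7 entries holds 73.5% with T cells and 70.7% with medium, and the region below it 9.52% and 12.3%.

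Detection fell into an abundant core and a long list of rarely seen entries. Of the 110 piRNAs, 14 (12.7%) had counts in all 12 libraries, 46 had counts in exactly 1 library and 67 in 1 to 3. In T cell replicate 2 and medium replicate 3, which hold no counts from 1 to 9, an entry is seen here only at 10 or more counts. The number found in all 12 libraries, and the numbers per library below, depend in part on that cut. Among the miRNAs, 1191 of 1885 (63.2%) were in all 12 libraries and 9 in exactly 1. The median piRNA was seen in 2 libraries with 21 counts in all, the median miRNA in 12 libraries with 277 counts. A library held between 33 and 47 piRNAs with T cells (median 35), against 32 to 52 with medium (median 34.5). Both groups had a mean of 38.0 (SD 6.32 with T cells and 7.72 with medium, n = 6 each, exact permutation p = 1). At 10 or more counts, a cut that applies alike to every library, both groups had a mean of 31.2 (SD 7.76 with T cells and 9.54 with medium, n = 6 each). With each library thinned to 48997 counts, the expected numbers were 37.1 ± 5.81 with T cells and 37.6 ± 7.47 in mice given medium (SD, n = 6 each).

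**Figure D3:**
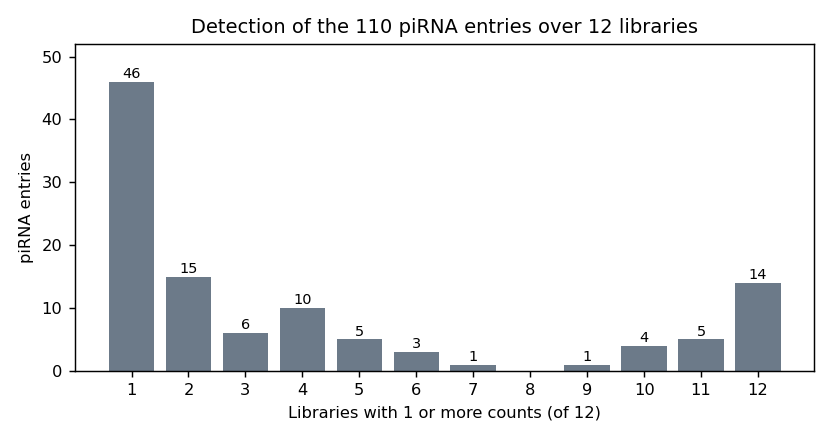
Number of piRNA entries (y axis) by the number of libraries, of 12, in which they had 1 or more counts (x axis). The 2 peaks are the 46 entries seen in a single library and the 14 seen in all 12, with no entry seen in exactly 8.

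Entries seen in 1 group were mostly entries seen in 1 mouse. In all, 31 piRNAs had counts with T cells and none with medium, and 21 the reverse. Of the 1885 miRNAs, 6 were seen with T cells alone and 6 with medium alone. The median miRNA had 277 counts in all, against 21 for the median piRNA. Of the 46 entries found in a single library, 29 were from mice with T cells, and 21 of these were from T cell replicate 2 alone, each with 10 to 17 counts. Without T cell replicate 2 and medium replicate 3, 82 entries were still detected, of which 12 were seen with T cells alone and 16 with medium alone. Most entries seen with T cells alone were thus entries of a library that holds no low counts, and no test was made of these numbers.

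One such entry was seen in more than a few mice. piR-017405 (chromosome 11, 65550994 to 65551015, minus strand, 22 bases), singled out here after its values were seen, had 44, 10, 16 and 8 counts in T cell replicates 2, 3, 5 and 6 and 0 in the other 8 libraries. It was the sole entry of the 1995 (0.0501%) with counts in 4 or more libraries with T cells and in none with medium. T cell replicate 2 gave 44 of its 78 counts, and the 0 of medium replicate 3 cannot be told apart from a count of 1 to 9. In the 10 other libraries it had 34 of 457932 counts with T cells, against 0 of 396187 counts with medium. With 3 counts over the medium group as the floor, the pooled level with T cells was 9.81-fold that floor in these 10 libraries. This ratio was computed after the values were seen and takes the 34 counts as exact. It does not measure the spread between mice, and T cell replicates 1 and 4 had no count. It was below the level for the edgeR test. DESeq2 without its filters gave an adjusted p of 0.0333 (0.752% of all 1995 entries were called higher there), and DESeq2 with its default filters gave it no adjusted p.

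The comparison of single piRNAs was made with the quasi-likelihood test of edgeR on all 1720 entries that passed its filter on low counts, with levels in counts per 1000000 (CPM) after TMM scaling. Of the 110 piRNAs, 22 (20.0%) passed, against 1698 of 1885 miRNAs (90.1%). These 22 held 94.9% of the piRNA counts. No piRNA had an adjusted p under 0.05, and neither did any of the 1720 entries (0%). At an unadjusted p under 0.05, edgeR gave 1 piRNA of 22, against 120 of all 1720 entries (6.98%). With limma voom there were 0 calls, and 2 piRNAs of 22 (1 higher and 1 lower) and 119 of all 1720 entries at that level. The levels of the 2 groups did not overlap for 0 of the 22 piRNAs and for 5 of the 1720 entries (0.291%). The log2 fold changes of T cells over medium were positive for 10 piRNAs and negative for 12. Their median was -0.03 (from -0.96 to 0.96), beside -0.05 for all tested entries. DESeq2, the tool of the study, called 40 entries higher and 4 lower with T cells among the 561 to which its filters left an adjusted p (7.13% higher). Of the 7 piRNAs among the 561, it called 1 higher, piR-034616, and none lower.

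**Figure D4:**
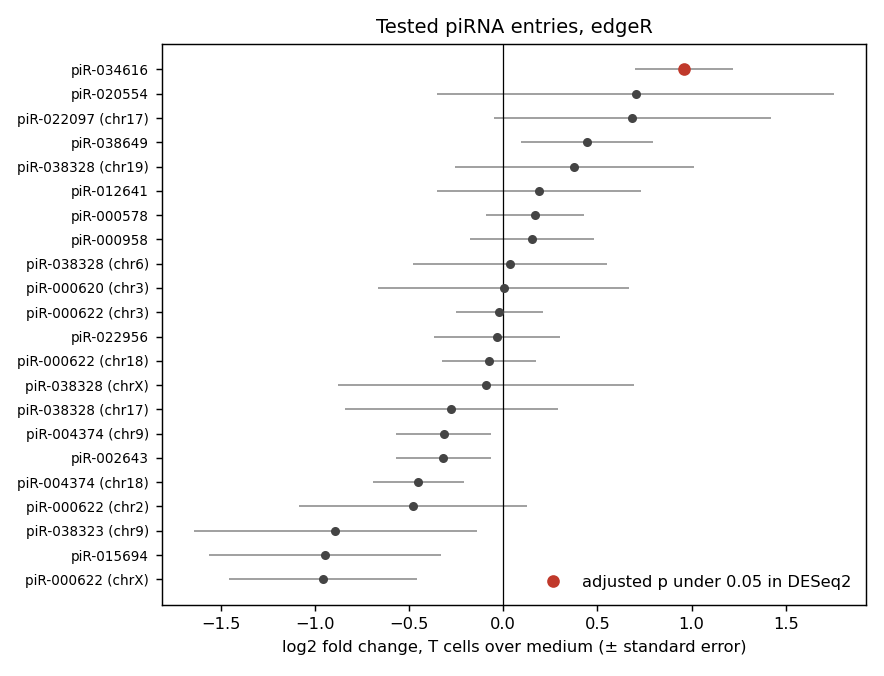
The log2 fold change of T cells over medium from edgeR (x axis, with its standard error) for each of the 22 tested piRNA entries, ordered by value. The fold changes run from -0.96 to 0.96 about 0, and piR-034616, in red, is the entry with an adjusted p under 0.05 in DESeq2.

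piR-034616 (chromosome 8, 113015430 to 113015459, plus strand, 30 bases) was the piRNA called higher with T cells by DESeq2 with its default filters. edgeR over all entries gave a fold change in the same direction but did not call it. It had 34, 84, 82, 90, 47 and 81 counts in T cell replicates 1 to 6, and 44, 18, 59, 57, 31 and 28 counts in medium replicates 1 to 6. After scaling, the lowest, median and highest levels were 415, 860 and 1126 CPM with T cells, against 261, 418 and 529 CPM with medium. In 5 of the 6 mice with T cells it exceeded every mouse with medium, and T cell replicate 1 lay inside their range. The mean was 820 ± 250 CPM with T cells and 418 ± 99.1 CPM in mice given medium (SD, n = 6 each). edgeR gave a log2 fold change of 0.96 (SE 0.26, unadjusted p = 0.00166, adjusted p = 0.259), and DESeq2 one of 0.94 (SE 0.26, adjusted p = 0.0126). The DESeq2 call was not made in every subset of the mice: without T cell replicate 2 its filters left no adjusted p, and without both T cell replicate 2 and medium replicate 3 the adjusted p of DESeq2 was 0.0537. In those 10 libraries its DESeq2 log2 fold change was 0.96. Scaling by library totals lowered the edgeR estimate to 0.59, and scaling by the abundant miRNAs lowered it to 0.36. The number stands on a single entry, and whether its reads also match other sequences was not tested.

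Neither of the 2 leading piRNAs passed the edgeR test over all entries. piR-000958 had 19149, 33414 and 39767 CPM (lowest, median and highest) with T cells, against 22181, 30105 and 33395 CPM with medium. T cell replicate 2 was the lowest of all 12, and 3 mice with T cells lay above every mouse with medium. The log2 fold change was 0.15 (SE 0.33, edgeR adjusted p = 0.990). It was -0.16 with scaling by library totals and -0.38 with scaling by abundant miRNAs, so no direction is given. piR-002643 had 2686, 3449 and 4750 CPM with T cells, against 3110, 4435 and 5356 CPM with medium. Its log2 fold change was -0.32 (SE 0.25, edgeR adjusted p = 0.990), with 3 mice given T cells below every mouse given medium. Scaling by library totals gave -0.67 (edgeR unadjusted p = 0.0162, adjusted p = 0.470) and scaling by abundant miRNAs gave -0.89 (edgeR unadjusted p = 0.00220, adjusted p = 0.206), where the median of all entries also moved, to -0.38 and -0.61. When the 22 piRNAs were tested among themselves, piR-002643 was called lower. The ratio of piR-002643 to piR-000958, which does not depend on scaling, ran from 8.10% to 16.0% with T cells and from 11.0% to 18.4% with medium. It averaged 11.5% ± 3.06 and 15.6% ± 2.83 (SD, n = 6 each, exact permutation p = 0.0411, 0.123 after adjustment over the 12 measures). This ratio was chosen after the values were seen.

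**Figure D5:**
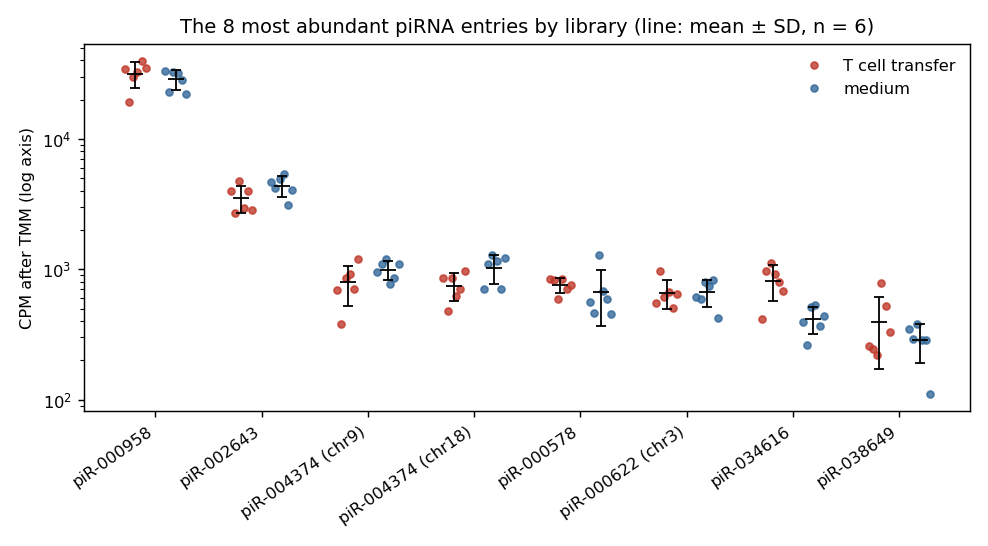
Level in CPM after TMM scaling (logarithmic y axis) of the 8 most abundant piRNA entries in each library, T cells in red at the left and medium in blue at the right of each pair. Points are mice and the bars are the mean ± SD (n = 6 each). The groups overlap for all 8 entries, and for piR-034616 5 of 6 mice with T cells lie above every mouse with medium.

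Several numbers stand on more than 1 entry, and the sharing of counts among such copies bears on what a fold change of 1 entry means. piR-004374 has an entry on chromosome 9 (110126452 to 110126481, plus strand) and an entry on chromosome 18 (85832427 to 85832456, minus strand), both of 30 bases. They held 972 and 955 counts, or 50.4% and 49.6% of their sum. Between libraries the share of the chromosome 9 entry ran from 39.9% to 59.6%, and in 10 of 12 libraries the 95% Wilson interval held the pooled share. Other numbers were shared less evenly: the interval held the pooled share in 5 of 12 libraries for piR-000620 and in 0 of 5 for piR-000414. The chromosome 9 entry had 384, 786 and 1198 CPM (lowest, median and highest) with T cells, against 770, 1022 and 1207 CPM with medium, and a log2 fold change of -0.32 (SE 0.25). The chromosome 18 entry had 477, 781 and 970 CPM with T cells, against 702, 1125 and 1285 CPM with medium, and a log2 fold change of -0.45 (SE 0.24, edgeR unadjusted p = 0.0790, adjusted p = 0.849). With both entries added, the log2 fold change was -0.38 (SE 0.24, edgeR adjusted p = 0.954), so the number was not called in either form.

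piR-000622 stands on 4 entries, on chromosomes 3, X, 18 and 2, which held 44.4%, 22.2%, 20.8% and 12.6% of 1630 counts. The entry on chromosome X (112404287 to 112404314, minus strand) had 7, 0, 19, 48, 14 and 34 counts in T cell replicates 1 to 6 and 45, 47, 49, 34, 43 and 22 in medium replicates 1 to 6. It lay below every mouse with medium in 5 of the 6 mice with T cells. Its log2 fold change was -0.96 (SE 0.50, edgeR unadjusted p = 0.0712, adjusted p = 0.812), and -0.69 without T cell replicate 2, where the 0 cannot be told apart from a count of 1 to 9. The entry on chromosome 3 (5843428 to 5843455, plus strand) had 506, 634 and 965 CPM with T cells, against 424, 678 and 834 CPM with medium, and a log2 fold change of -0.02 (SE 0.23). With all 4 entries added, piR-000622 had a log2 fold change of -0.29 (SE 0.21, edgeR adjusted p = 0.990), less than that of the entry on chromosome X alone.

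The remaining named entries also did not pass the test. piR-000578 (chromosome 17, 39456112 to 39456137, plus strand) had 590, 792 and 846 CPM with T cells, against 455, 577 and 1276 CPM with medium. The highest value was that of medium replicate 3, and the log2 fold change was 0.17 (SE 0.26, edgeR adjusted p = 0.990), or 0.46 without that library. piR-038649 (chromosome 17, 27070232 to 27070255, plus strand) had 220, 293 and 784 CPM with T cells, against 110, 289 and 382 CPM with medium, and a log2 fold change of 0.45 (SE 0.35, edgeR adjusted p = 0.990). Neither direction held with scaling by abundant miRNAs (-0.37 for piR-000578 and -0.050 for piR-038649). piR-015694 (chromosome 13, 23691360 to 23691386, minus strand) had 0 to 19 counts with T cells and 12 to 40 with medium, with 3 mice given T cells below every mouse given medium. Its log2 fold change was -0.95 (SE 0.62, edgeR adjusted p = 0.958), or -0.70 without T cell replicate 2, where it had no count. The standard errors of the 22 tested piRNAs ran from 0.23 to 1.05 on the log2 scale with a median of 0.51, beside a median of 0.37 for the miRNAs.

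Markers of cells that release RNA into serum were read beside the piRNAs, as summed CPM of fixed lists of miRNAs, with every listed miRNA present in the table and none at 0 in all libraries. The erythrocyte list (5 miRNAs, 4 of them with a positive fold change) had a median of 138396 CPM (37463 to 340282) with T cells, against 55416 CPM (26589 to 137373) with medium. Its most abundant member, miR-16-5p, averaged 79390 CPM after transfer, against 35673 CPM after medium. Its log2 fold changes were 1.15 for miR-16-5p, 1.02 for miR-486b-5p, 0.95 for miR-486a-5p, 0.40 for miR-451a and -0.22 for miR-144-3p. The summed level thus does not describe every member. The platelet and myeloid list (4 miRNAs, all positive) had a median of 51263 CPM (23126 to 73990) with T cells, against 20477 CPM (9742 to 33370) with medium. Its members miR-126a-3p, miR-191-5p, miR-21a-5p and miR-223-3p had log2 fold changes of 1.36, 1.62, 0.96 and 1.03. How specific the listed miRNAs are to the named cells was not tested. The T lymphocyte list (6 miRNAs, all positive) had a median of 18814 CPM (11740 to 27566), against 10313 CPM (5883 to 20787). Mice given medium lack mature T cells, so this sum does not read T lymphocytes alone. Its most abundant member, miR-142a-3p, averaged 14880 CPM after transfer, against 8456 CPM after medium. The log2 fold change was 0.39 for miR-150-5p (edgeR unadjusted p = 0.295) and 0.94 for miR-146a-5p (edgeR unadjusted p = 0.00776). The liver list (2 miRNAs, both positive) had a median of 2712 CPM (2142 to 3395), against 1794 CPM (1103 to 2588). No miRNA of these lists passed the edgeR test (1, 4, 2 and 1 of them, in the order given, were higher at an unadjusted p under 0.05), while DESeq2 called 3 of the platelet and myeloid list and 1 of the T lymphocyte list higher with T cells. Their part in the level of piR-034616 and in the share of the other piRNAs was not tested.

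miRNAs known from the testis and germ cells, the tissue in which piRNAs are best known, had summed levels in overlapping ranges. All 15 of the list, among them the miR-34b/c and miR-449 families and a cluster on the X chromosome, were in the table, and 13 passed the filter. Their summed level was 3232 to 5156 CPM with T cells (median 3920), against 3525 to 4929 CPM with medium (median 4205). Of the 13, 8 had a positive fold change, 0 passed the edgeR threshold, 0 were called higher by DESeq2, and 1 was lower at an unadjusted edgeR p under 0.05. Their median log2 fold change was 0.04.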

How the data were processed

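Small RNA of serum bEVs from 6 Rag1-/- mice given T cells and 6 given medium was sequenced as 75-base single-end reads. Base calls came from bcl2fastq 2.18.0.12 according to the notes of the submitters. The authors then used the GeneGlobe service of Qiagen for trimming, for finding unique molecular identifiers and for alignment against miRBase 21 and mouse mm10. The deposited table holds whole-number counts per miRNA or piRNA, not normalized, in 1 column per mouse. It does not say whether a count is a read or a molecule, and the source of the piRNA annotation is not given in the sources used here. No piRNA sequence was at hand, so none is shown. All entries reach 10 counts in at least 1 library, and 2 libraries hold no counts from 1 to 9. Counts were not divided by length. Levels of different entries are compared as CPM, and how evenly different sequences were captured was not measured.

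The main test was glmQLFTest of edgeR 4.0.16 (R 4.3.3) after filterByExpr by group and TMM scaling, with Benjamini-Hochberg adjustment over all 1720 tested entries and a threshold of 0.05. DESeq2 1.42.0, the tool of the study, and limma 3.58.1 (voom) were alternatives, and DESeq2 values are given beside edgeR. For measures with 1 value per library, an exact permutation test (two-sided, all arrangements of 6 against 6, smallest p 0.00216) was used with Python 3.11.15, pandas 2.3.3 and scipy 1.17.1. Library totals were 48997 to 130106 counts, and 95% Wilson intervals and the floor of 3 counts cover counting error only. The scripts were tested on simulated data. Other scalings, filters, tools, left-out libraries and the replicate number as a block were tried. The replicate numbers did not pair the mice.

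Named piRNAs are the 8 with the highest mean count, the 4 tested with the lowest edgeR p, those with an adjusted p under 0.05 in edgeR or DESeq2, tested ones whose groups do not overlap, and piR-034616, taken by name from the study. Entries named because few shared a count are exceptions, chosen after their values were seen, as were all 7 entries of the leading region. The members, lists and tests were chosen with earlier results of these data known.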

Additional observations from a re-analysis of the deposited data

Results flagged for a closer look

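Among the 26 groups of 6 mice examined for a value far from the others, 3 held one, and chance flags about 1 in 20. piR-000578 was at 1276 CPM in medium replicate 3, with the nearest of the other 5 medium mice at 687 CPM. piR-000622 (chr3) was at 965 CPM in T cell replicate 2, with the nearest mouse given T cells at 670 CPM. With all 4 entries of piR-000622 added, T cell replicate 2 was at 1407 CPM, between T cell replicates 1 (1046 CPM) and 4 (1638 CPM). piR-038649 was at 110 CPM in medium replicate 6, with the nearest medium mouse at 286 CPM. The flagged values of piR-000578 and piR-000622 (chr3) come from the 2 libraries that hold no counts from 1 to 9. That of piR-038649 comes from the library with the lowest total.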

How the results depend on the processing

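The count of called piRNAs was 0 in edgeR under each scaling and filter on low counts, with the replicate block, and without any 1 library (0 to 0). It was 1 with DESeq2, 2 with DESeq2 without its filters (piR-034616 and piR-017405), and 2 when the piRNAs were tested among themselves (piR-034616 higher, piR-002643 lower, relative to other piRNAs). With DESeq2 and 1 library left out, an alternative added after seeing the data, it was 0 to 1. Over all entries the counts were 44 with DESeq2, 18 without its filters, 2 with piRNAs alone, 15 to 68 with DESeq2 (0 in edgeR) and 1 library left out, and 8 without both T cell replicate 2 and medium replicate 3. The replicate block gave 0 calls, with 109 entries at an unadjusted edgeR p under 0.05. For the piRNA share, the block gave an exact sign-flip p of 0.156. Deviations of mice with the same number correlated between -0.31 and 0.08, so the numbers were not taken as pairs.

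Scaling moved fold changes together. Library totals moved the median of all entries to -0.38 and that of the piRNAs to -0.38, and abundant miRNAs moved them to -0.61 and -0.59. Under these 2 scalings piR-000958 reversed to -0.16 and -0.38 and piR-000578 to -0.17 and -0.37, and under the second piR-038649 reversed to -0.050. piR-000622 (chr3) was -0.39 with library totals, -0.60 with abundant miRNAs, 0.017 among piRNAs alone and between -0.18 and 0.051 with 1 library left out. The difference in piRNA share was -0.28 percentage points outside the 10 most abundant entries, -0.38 without the leading piRNA, and between -0.98 and -0.34 with 1 library left out. The 3 most abundant piRNAs together reversed the difference in leading share to -0.48 percentage points (exact permutation p = 0.907). Low counts limit most entries: 76 of 110 held under 50 counts in all. The causes of these shifts were not tested beyond the settings themselves.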
